A study of Homo sapiens with 14 samples.

Results

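The genes described here are 9 established targets of the transcription factor NRF2: SLC7A11, GCLC, GCLM, TXNRD1, SRXN1, NQO1, HMOX1, ME1 and OSGIN1. They were taken from the count tables by gene symbol, or by NCBI gene number where a table has no symbols, and are 9 of the 27819 genes that all 4 tables list. The list was drawn up with results of these samples known, so the values of the 9 genes against vehicle are given as a description, with no p-value. RNA was sequenced from CWR22RV1, a prostate cancer line of human origin that expresses the androgen receptor. Cells had been cultured for 72 h with P-SiaFNEtoc at 2 μM (3 libraries), SGN-2FF at 100 μM (3), Fucotrim I at 30 μM (3), Fucotrim II at 60 μM (2) or the vehicle, DMSO (3). SGN-2FF is a fluorinated fucose that is taken up through the fucose salvage pathway. The Fucotrims are rhamnose phosphate derivatives aimed at GMDS, an enzyme of GDP-fucose synthesis. These 3 are called fucosylation inhibitors here after their target. The paper reports that Fucotrim I did not lower fucose lectin binding to CWR22RV1 cells far enough to determine its potency. It also reports that both Fucotrims reduced proliferation and induced apoptosis in this line, whereas SGN-2FF left proliferation unchanged. The Fucotrims are also reported to lower GDP-mannose, and in another prostate line L-fucose did not prevent the apoptosis. P-SiaFNEtoc inhibits sialyltransferases. Each inhibitor was used at 1 dose and the doses differ, so values for the inhibitors are set side by side and not tested against each other. All 4 comparisons use the same 3 DMSO libraries. The sample numbers of the SGN-2FF libraries do not follow on from those of the others. Whether the libraries of the different treatments were prepared and sequenced together is not stated. All libraries are of 1 cell line, and in RNA from a whole culture fewer cells that express a gene and less RNA per cell cannot be told apart.

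The libraries held between 12553094 and 19981453 counts on genes, and all 10 markers of prostate luminal epithelium were detected. Their summed level, in CPM (the count of a gene scaled to a common library size), was 2266 to 2346 with DMSO, 3176 to 3276 with Fucotrim I, 2986 to 3277 with Fucotrim II, 2871 to 3003 with SGN-2FF and 2610 to 2685 with P-SiaFNEtoc, and so was above DMSO with each inhibitor. The summed level of 5 fibroblast markers was 19.2 to 21.3 CPM with DMSO and up to 33.1 CPM with Fucotrim II, most of it from COL1A1. The summed level of 4 leukocyte markers did not exceed 8.33 CPM, most of it from CD68, and that of 3 endothelial markers did not exceed 0.251 CPM. The part of these shifts in the results was not tested. The share of counts on mitochondrially encoded genes was 5.98% to 7.03% with DMSO, 8.67% to 14.2% with Fucotrim I, 12.2% to 17% with Fucotrim II, 8.27% to 8.68% with SGN-2FF and 6.11% to 6.83% with P-SiaFNEtoc. It was thus above DMSO in every library of the fucosylation inhibitors, and the log2 fold changes of the 9 genes were also computed with those genes left out. All 9 were then below 0 with each of the 3 inhibitors, as they were with those genes kept. Leaving those genes out mainly changes the scaling. It could hardly turn a sign, since no library of these inhibitors overlapped with DMSO for the 9 genes. The part of the raised mitochondrial share in the results was not tested.

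NRF2, the product of NFE2L2, is held in the cytoplasm by KEAP1, an adaptor that hands it to a CUL3 and RBX1 ubiquitin ligase for degradation. Oxidants and electrophiles modify KEAP1, and NRF2 then enters the nucleus, pairs with a small MAF protein and binds antioxidant response elements. Its targets make glutathione, recycle thioredoxin, reduce quinones, break down heme and supply NADPH. BACH1 occupies the same elements and represses some of these genes.

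The antioxidant response element is usually written with the core TGACNNNGC, in which N is any base, and TGACTCAGC is the form of the core that many known NRF2 sites share. The promoter table of RefSeq (GRCh38.p14) held 7 of the 9 genes, with 8 start sites since TXNRD1 has a pair of them. HMOX1 and SLC7A11 have no entry. Both strands were searched from 250 bases before to 50 bases after each start site, and matches to TGACNNNGC include every match to TGACTCAGC. The core TGACNNNGC was present at GCLM, ME1 and TXNRD1, which are 3 of 7 genes, against 13.3% of all 35116 promoters in the table. TGACTCAGC was present at ME1, against 0.561% of all promoters. In the 5000 bases before the start, a window chosen after the first had been searched, TGACTCAGC was found for GCLC, ME1 and NQO1 and for 6.44% of all starts, whereas TGACNNNGC was found for 82.3% of all starts. The matches are printed 5′ to 3′ on the strand that carries the motif, with the motif in capitals, to show the letters that an NRF2 element would have at these genes. Binding was not measured, and a match in the reference genome (hg38) is a description of the sequence.
GCLC: cgcctccccgTGACTCAGCgctttgtgcg
NQO1: gcagtcacagTGACTCAGCagaatctgag
ME1: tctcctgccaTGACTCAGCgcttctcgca
GCLM: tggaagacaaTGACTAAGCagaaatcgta
TXNRD1, first start: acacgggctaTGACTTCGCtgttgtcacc
TXNRD1, second start: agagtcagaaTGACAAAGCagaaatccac

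The GCLC match lies at chr6:53548249-53548257, inside the annotated gene and in no exon, on the strand opposite to GCLC. Its base farthest before the start site, on whichever strand the motif lies, is at position -3156. The other positions are counted in the same way. The NQO1 match, at chr16:69727007-69727015 and position -455, is on the strand of NQO1 and falls in an exon of the divergent transcript NQO1-DT. The ME1 match, at chr6:83431180-83431188 and position -137, is on the strand of ME1 and in no annotated gene. The GCLM match at chr1:93909456-93909464, position -34, is on the opposite strand and touches the annotated first exon of GCLM. At TXNRD1, the matches lie at chr12:104215680-104215688 (position -99, same strand, outside the annotated gene) and chr12:104286930-104286938 (position -102, opposite strand, in an exon of TXNRD1).

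All 9 genes were lower than with DMSO after treatment with any of the 3 fucosylation inhibitors, and every treated library lay below every DMSO library for each of them. The median log2 fold change of the 9 was -0.51 for Fucotrim I, -0.79 for Fucotrim II and -0.62 for SGN-2FF, against 0.00, 0.01 and 0.00 over all genes tested. With P-SiaFNEtoc the median was -0.04, against 0.00 over all genes. By edgeR's quasi-likelihood test with an adjusted p under 0.05, 9 of 9 were called lower with Fucotrim I, where 22.1% of 14188 tested genes were called lower. The same count was 9 of 9 with Fucotrim II (25.7% of 14617 genes) and 9 of 9 with SGN-2FF (9.08% of 14312 genes). Treated libraries all lay below DMSO for 27% of the genes tested with Fucotrim I, for 34.2% with Fucotrim II and for 17.4% with SGN-2FF. With P-SiaFNEtoc, GCLM was called lower (7.33% of 14259 genes were), HMOX1 was called higher (9.02% were) and the other 7 genes were not called. All its libraries lay above DMSO for 2 of the 9 genes (17.3% of all genes) and below DMSO for 3 of them (16.4%). The list was chosen with these contrasts known, so its counts are not evidence of a direction. Whether the lower levels follow from less fucosylation or from other effects of the compounds was not tested.

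**Figure D1:**
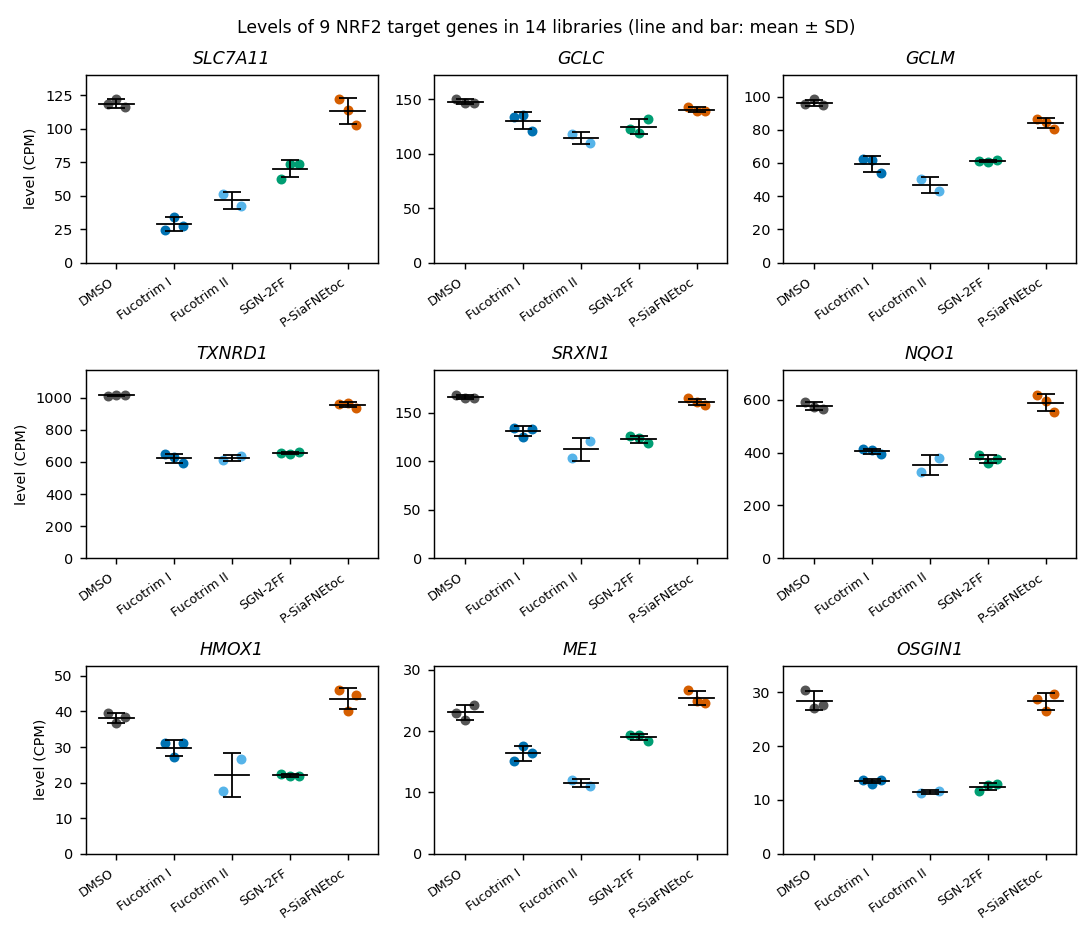
Level of each of the 9 genes (vertical axis, CPM, starting at 0) in each of the 14 libraries, by treatment (horizontal axis); points are libraries, and the line and bar are the mean ± SD. For every gene the points of the 3 fucosylation inhibitors lie below the DMSO points, whereas those of P-SiaFNEtoc lie close to them.

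Levels per library are CPM scaled over all 14 libraries together by the TMM method, which corrects for differences in RNA composition, in the order of the replicate numbers in the sample titles. Fold changes come from the fit of each inhibitor with DMSO alone and are given on the log2 scale ± SE. Compared per kilobase of annotated exon with DMSO, NQO1 had the highest level of the 9 genes (194 CPM per kb), followed by TXNRD1 (151) and SRXN1 (65.8). GCLM (17.7), GCLC (17.1), HMOX1 (16.6) and SLC7A11 (12.3) followed, and ME1 (6.91) and OSGIN1 (5.11) had the lowest.

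The first step of glutathione synthesis needs cysteine, which SLC7A11 supplies as part of the cystine/glutamate exchanger xCT. SLC7A11 (NCBI gene 23657, chr4:138164097-138242349, minus strand) was at 118, 122 and 116 CPM with DMSO. It was at 24.2, 34.2 and 27.6 CPM with Fucotrim I, at 51.1 and 42.2 CPM with Fucotrim II and at 62.6, 73.9 and 73.8 CPM with SGN-2FF. The 3 inhibitors did not overlap with DMSO or with one another, and Fucotrim I gave the lowest level, 24.2% of the DMSO mean. With P-SiaFNEtoc the level was 122, 114 and 103 CPM, which overlaps with DMSO. The log2 fold changes were -2.04 ± 0.09 with Fucotrim I, -1.35 ± 0.09 with Fucotrim II, -0.74 ± 0.05 with SGN-2FF and -0.06 ± 0.05 with P-SiaFNEtoc. The first of these was the most negative value of any of the 9 genes with any of the 4 inhibitors. An antisense gene, SLC7A11-AS1, covers 8.97% of the exon bases of SLC7A11, and whether the counting used strand is not stated.

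GCLC and GCLM are the catalytic and the modifier subunit of glutamate-cysteine ligase, the enzyme that joins glutamate and cysteine. GCLC (gene 2729, chr6:53497341-53616970, minus strand) was at 150, 146 and 146 CPM with DMSO, at 134, 135 and 121 CPM with Fucotrim I and at 118 and 110 CPM with Fucotrim II. With SGN-2FF it was at 123, 119 and 132 CPM and with P-SiaFNEtoc at 143, 139 and 139 CPM. All treated libraries were below DMSO, by little: the log2 fold changes were -0.18 ± 0.05, -0.38 ± 0.06, -0.23 ± 0.04 and -0.07 ± 0.04 in the order Fucotrim I, Fucotrim II, SGN-2FF and P-SiaFNEtoc. The call with Fucotrim I was lost without DMSO replicate 1 (log2 fold change -0.16) and without Fucotrim I replicate 3 (-0.12).

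GCLM (gene 2730, chr1:93885199-93909456, minus strand) was lower by more than GCLC with each of the 3 fucosylation inhibitors. It was at 95.4, 98.5 and 95.1 CPM with DMSO. With Fucotrim I it was at 62.4, 62.1 and 53.8 CPM, with Fucotrim II at 50.2 and 43.2 CPM, and with SGN-2FF at 61.2, 60.6 and 62 CPM. Fucotrim II gave the lowest level, whereas Fucotrim I and SGN-2FF overlapped. The log2 fold changes were -0.69 ± 0.06, -1.05 ± 0.08 and -0.64 ± 0.05. With P-SiaFNEtoc, GCLM was at 86.6, 84.8 and 80.5 CPM, all below DMSO, with a log2 fold change of -0.19 ± 0.05. It was the one gene of the 9 called lower with this inhibitor, a call that was lost when all 14 libraries were fitted together (-0.20).

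TXNRD1 and SRXN1 belong to the thioredoxin system. TXNRD1, thioredoxin reductase, passes electrons from NADPH to thioredoxin. TXNRD1 (gene 7296, chr12:104215779-104350307, plus strand) was the most even of the 9 genes with DMSO, at 1013, 1020 and 1016 CPM. It was at 648, 629 and 592 CPM with Fucotrim I, at 612 and 640 CPM with Fucotrim II and at 655, 651 and 661 CPM with SGN-2FF. These levels were 61.3%, 61.6% and 64.5% of the DMSO mean, and the libraries of the Fucotrims overlapped with each other. The log2 fold changes were -0.70 ± 0.05, -0.71 ± 0.06 and -0.62 ± 0.03. With P-SiaFNEtoc it was at 963, 968 and 939 CPM, below all DMSO libraries, and the log2 fold change of -0.08 ± 0.04 was not called.

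SRXN1, sulfiredoxin, repairs over-oxidised peroxiredoxins. SRXN1 (gene 140809, chr20:646615-653200, minus strand) was at 169, 165 and 165 CPM with DMSO. It was at 135, 125 and 133 CPM with Fucotrim I, at 104 and 121 CPM with Fucotrim II and at 126, 124 and 119 CPM with SGN-2FF. The libraries of Fucotrim II overlapped with those of SGN-2FF, and those of SGN-2FF with those of Fucotrim I. Its log2 fold changes were -0.34 ± 0.05, -0.57 ± 0.07 and -0.42 ± 0.04. With P-SiaFNEtoc the level, 165, 161 and 158 CPM, overlapped with DMSO (-0.04 ± 0.04). A readthrough gene, ENSG00000270299, shares 90.7% of the exon bases of SRXN1 on the same strand in the GENCODE annotation. If the annotation used for counting holds it too, the counts of SRXN1 depend on how reads on shared exons were assigned.

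NQO1 reduces quinones without releasing radicals and is among the most used readouts of NRF2. NQO1 (gene 1728, chr16:69706996-69726668, minus strand) was at 593, 574 and 565 CPM with DMSO. It was at 412, 409 and 393 CPM with Fucotrim I, at 327 and 379 CPM with Fucotrim II and at 392, 361 and 376 CPM with SGN-2FF. Fucotrim II and SGN-2FF overlapped, and Fucotrim I lay just above SGN-2FF. Its log2 fold changes were -0.51 ± 0.05, -0.71 ± 0.07 and -0.60 ± 0.04. With P-SiaFNEtoc NQO1 was at 620, 595 and 554 CPM, a range that reached beyond the DMSO libraries on both sides (0.04 ± 0.04). A gene on the opposite strand, ENSG00000261602, covers 19.4% of its exon bases.

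HMOX1, heme oxygenase 1, opens heme to biliverdin, carbon monoxide and iron, and is a gene on which BACH1 acts strongly. HMOX1 (gene 3162, chr22:35380361-35394214, plus strand) was at 39.6, 36.7 and 38.4 CPM with DMSO and at 31.2, 27.1 and 31 CPM with Fucotrim I. It was at 17.7 and 26.6 CPM with Fucotrim II and at 22.5, 21.8 and 21.9 CPM with SGN-2FF. The libraries of Fucotrim II were far apart, and those of SGN-2FF lay between them. The log2 fold changes were -0.36 ± 0.07, -0.79 ± 0.14 and -0.78 ± 0.07, and the value with Fucotrim II was -0.53 without replicate 1 and -1.12 without replicate 2. With P-SiaFNEtoc, HMOX1 was at 46, 40.2 and 44.5 CPM, above every DMSO library. Its log2 fold change of 0.20 ± 0.06 was the one called rise among the 9 genes, and the call was lost without DMSO replicate 2 (0.17), DMSO replicate 3 (0.20), P-SiaFNEtoc replicate 1 (0.15) or P-SiaFNEtoc replicate 3 (0.18), by DESeq2 (0.19) and with all 14 libraries in 1 fit (0.19).

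ME1, the cytosolic malic enzyme, makes NADPH as it turns malate into pyruvate. ME1 (gene 4199, chr6:83210402-83431051, minus strand) was at 23, 21.9 and 24.3 CPM with DMSO. It was at 15.1, 17.5 and 16.5 CPM with Fucotrim I, at 12 and 11.1 CPM with Fucotrim II and at 19.3, 19.4 and 18.4 CPM with SGN-2FF. No pair of groups overlapped: the order from low to high was Fucotrim II, Fucotrim I, SGN-2FF, DMSO and P-SiaFNEtoc. The log2 fold changes were -0.49 ± 0.09, -1 ± 0.10 and -0.26 ± 0.08, and that with SGN-2FF was no longer called without DMSO replicate 3 (-0.23) or by DESeq2 (-0.27). With P-SiaFNEtoc ME1 was at 26.7, 25 and 24.6 CPM, above DMSO, and its log2 fold change of 0.15 ± 0.07 was not called.

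OSGIN1, named as an inhibitor of growth that oxidative stress induces, was among the genes with the most negative fold changes of the 9 with every fucosylation inhibitor. OSGIN1 (gene 29948, chr16:83931311-83966332, plus strand) was at 30.4, 27.1 and 27.7 CPM with DMSO. It was at 13.7, 13 and 13.7 CPM with Fucotrim I, at 11.2 and 11.7 CPM with Fucotrim II and at 11.7, 12.8 and 12.9 CPM with SGN-2FF. The means were 47.5%, 40.3% and 43.9% of DMSO. The log2 fold changes were -1.07 ± 0.09, -1.32 ± 0.10 and -1.17 ± 0.08, the most negative of the 9 genes with SGN-2FF and second to SLC7A11 with both Fucotrims. With P-SiaFNEtoc it was at 28.7, 26.5 and 29.7 CPM, which overlaps with DMSO (0.00 ± 0.07). The neighbouring gene MLYCD shares 8.22% of the exon bases of OSGIN1 on the same strand.

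**Figure D2:**
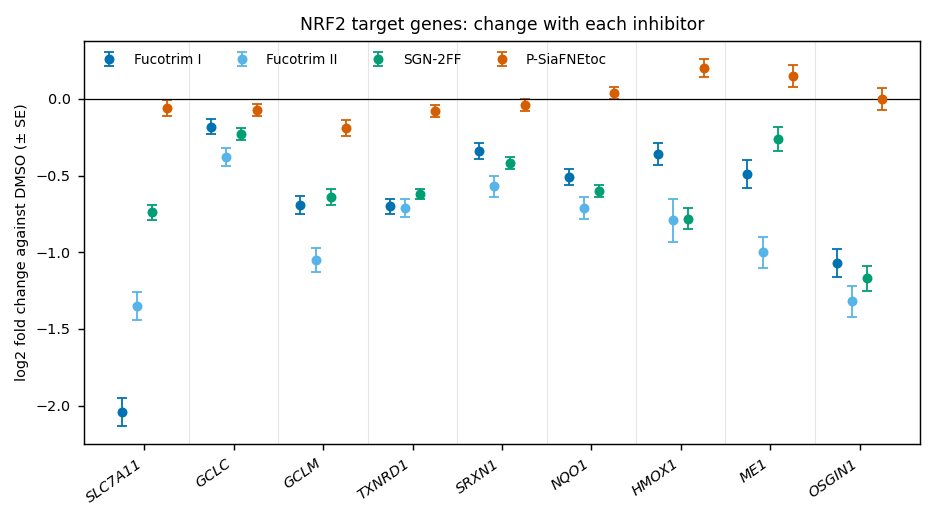
Log2 fold change against DMSO (vertical axis, ± SE) of each of the 9 genes (horizontal axis) with the 4 inhibitors, which share the 3 DMSO libraries and were used at different doses. All values of the 3 fucosylation inhibitors are below 0, from -0.18 (GCLC, Fucotrim I) to -2.04 (SLC7A11, Fucotrim I), and those of P-SiaFNEtoc run from -0.19 (GCLM) to 0.20 (HMOX1).

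Of the 9 genes, 6 had their lowest mean level with Fucotrim II (GCLC, GCLM, SRXN1, NQO1, ME1 and OSGIN1), 2 with Fucotrim I (SLC7A11 and TXNRD1) and 1 with SGN-2FF (HMOX1). For TXNRD1, SRXN1, NQO1 and HMOX1 the libraries of the lowest group overlapped with those of the next lowest, so their place is not settled. Taken library by library, the median log2 difference of the 9 genes from the DMSO mean was -0.59, -0.49 and -0.55 with Fucotrim I, -0.91 and -0.67 with Fucotrim II, and -0.63, -0.66 and -0.62 with SGN-2FF. The Fucotrim II library with the lower median, replicate 1, was also the one with the larger mitochondrial share (17% against 12.2%). With Fucotrim I it was the other way round, as the lowest median (-0.59, replicate 1) came with the smallest share (8.67%). The part of the mitochondrial share in these differences was not tested. With P-SiaFNEtoc the medians were 0.02, -0.05 and -0.07, and the DMSO libraries themselves were at 0.02, -0.01 and -0.02.

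Across the 14 libraries, Pearson's r between log2 CPM of the 36 pairs of the 9 genes ran from 0.51 (SLC7A11 and HMOX1) to 0.98 (SRXN1 and NQO1), with a median of 0.85. These are descriptions over 14 libraries in 5 treatments, and the points share treatment, depth and scaling. The 9 genes were listed with these contrasts known, so a high r between them follows in part from the choice. GCLC and GCLM were closest to each other (r = 0.94), as were TXNRD1 and OSGIN1 (0.97), whereas the gene closest to SLC7A11 was TXNRD1 at 0.86. Among 11827 other genes (mean count 50 or more), those most like OSGIN1 were ID2 (r = 0.976), FECH (0.972), ID1 (0.94), DLX3 (0.939) and BCL2L13 (0.937). ID1 and ID2 encode inhibitors of helix-loop-helix transcription factors, and FECH, ferrochelatase, inserts iron into heme. Those most like the mean profile of the 9 genes were FECH (0.985), LIMCH1 (0.969), SMAD9 (0.961), IGFBP3 (0.956) and ID2 (0.952). FECH was at a mean of 164 CPM with DMSO, 127 with Fucotrim I, 122 with Fucotrim II, 131 with SGN-2FF and 161 with P-SiaFNEtoc. IGFBP3, a binding protein of insulin-like growth factors, was at 209, 83.3, 62.5, 118 and 231 CPM in the same order.

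Other genes of the NRF2 pathway, 58 from a list by function, were called in both directions with every inhibitor. The fall of the 9 target genes with the fucosylation inhibitors was thus not seen in every gene of this list. The list also holds regulators that act against NRF2, such as KEAP1, which need not move with its targets. With Fucotrim I, 53 passed the filter on low counts, 14 were called higher (21.6% of all tested genes were) and 16 lower (22.1%), with a median log2 fold change of -0.06. With Fucotrim II, 15 of 54 were higher (25.6% of all genes) and 12 lower (25.7%), with a median of -0.05. The counts with both Fucotrims are not far from the shares of all genes. With SGN-2FF, 14 of 53 were higher (11.5% of all genes) and 18 lower (9.08%), with a median of -0.08. With P-SiaFNEtoc, 15 of 54 were higher (9.02% of all genes) and 3 lower (7.33%), with a median of 0.08. No gene of the list was called lower with P-SiaFNEtoc without DMSO replicate 1, P-SiaFNEtoc replicate 1 or P-SiaFNEtoc replicate 2. The same held in 1 fit of all 14 libraries and at an adjusted p under 0.01 in edgeR. The balance with Fucotrim II turned on single libraries: 20 were higher and 12 lower without Fucotrim II replicate 1, and 8 higher and 16 lower without replicate 2. The count for Fucotrim II was 15 in all, 6 higher and 9 lower, without DMSO replicate 2, and 17 without DMSO replicate 1 (8 higher and 9 lower) or replicate 3 (7 higher and 10 lower). The groups of this list hold few genes each, and their counts are given beside the shares of all genes with no test of a group.

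**Figure D3:**
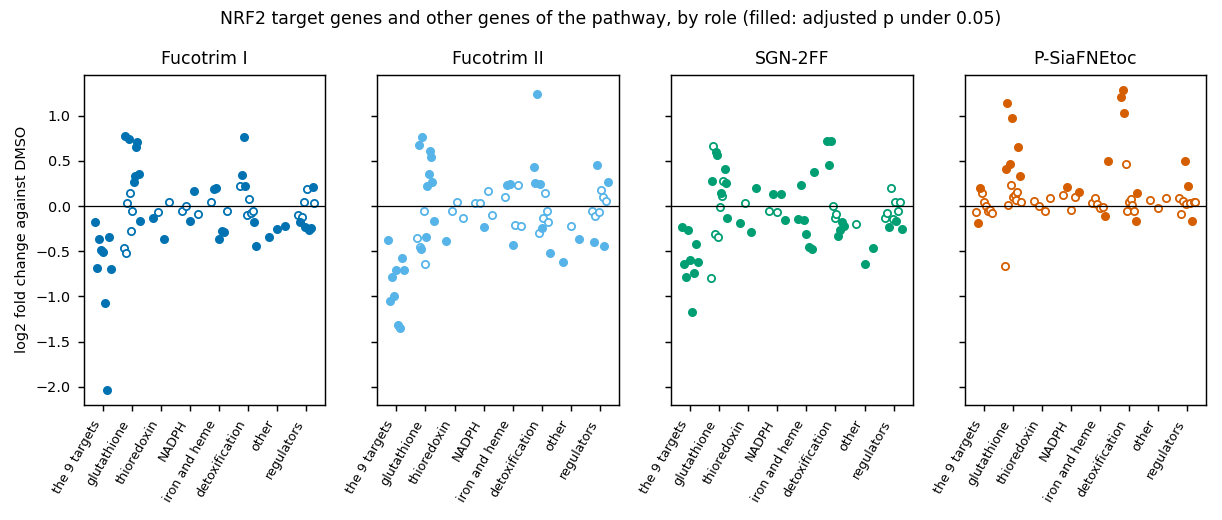
Log2 fold change against DMSO (vertical axis) of the 9 target genes and of the other genes of the NRF2 pathway, grouped by role (horizontal axis), with 1 panel per inhibitor; filled points have an adjusted p under 0.05. The 9 targets lie below 0 in the panels of the 3 fucosylation inhibitors, and the glutathione and detoxification groups hold points on both sides of 0 in every panel.

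In the glutathione group (enzymes that make, recycle or conjugate glutathione, and the transporters that export conjugates), 7 of 14 tested genes rose and 1 fell with Fucotrim I (21.6% and 22.1% of all genes did), 7 rose and 3 fell with Fucotrim II (25.6% and 25.7%), and 6 rose and 1 fell with SGN-2FF (11.5% and 9.08%). With P-SiaFNEtoc 6 rose (9.02% of all genes) and the other 8 were not called. ABCC2, a transporter that exports glutathione conjugates, was at 25.6 to 28.6 CPM with DMSO and at 42.6 to 50 CPM with Fucotrim I, a log2 fold change of 0.78 ± 0.08 (edgeR adjusted p = 9.47e-08). It also rose with Fucotrim II (0.68 ± 0.12, adjusted p = 0.00115), P-SiaFNEtoc (0.41 ± 0.07, adjusted p = 0.000212) and SGN-2FF (0.28 ± 0.07, adjusted p = 0.00323). The last call was lost with all 14 libraries in 1 fit (adjusted p = 0.0836, against 0.00147 as the lowest under the alternatives). GGT1, which cleaves glutathione outside the cell, rose from 29.2 to 31.7 CPM with DMSO to 48.7 and 55.5 CPM with Fucotrim II (0.77 ± 0.08, adjusted p = 8.98e-05). Its log2 fold change was 0.74 ± 0.07 with Fucotrim I (adjusted p = 4.14e-08), 0.60 ± 0.06 with SGN-2FF (adjusted p = 3.5e-08) and 0.47 ± 0.06 with P-SiaFNEtoc (adjusted p = 1.17e-06). Another gene of the GENCODE annotation, ENSG00000286070, shares most of the exon bases of GGT1 (56.5%). Whether the annotation used for counting holds it is not stated, so the counts of GGT1 may be uncertain.

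In the detoxification group, 10 or 11 genes were tested, of which 3 rose and 2 fell with Fucotrim I (21.6% and 22.1% of all genes did), 4 rose and 2 fell with Fucotrim II (25.6% and 25.7%), 3 rose and 4 fell with SGN-2FF (11.5% and 9.08%), and 4 rose and 1 fell with P-SiaFNEtoc (9.02% and 7.33%). The counts with Fucotrim I are near the shares of all genes. AKR1C1, AKR1C2 and AKR1C3 are aldo-keto reductases that act on steroids and on reactive carbonyls. AKR1C3 was at 27.7 to 28.8 CPM with DMSO and at 63.6 and 70.8 CPM with Fucotrim II, a log2 fold change of 1.24 ± 0.07 (edgeR adjusted p = 6.53e-06). It also rose with P-SiaFNEtoc (1.03 ± 0.06, adjusted p = 1.08e-13), Fucotrim I (0.77 ± 0.08, adjusted p = 3.98e-07) and SGN-2FF (0.72 ± 0.06, adjusted p = 1.11e-09). AKR1C2 rose most with P-SiaFNEtoc, from 28.9 to 30.8 CPM with DMSO to 64.8 to 78.5 CPM (1.29 ± 0.06, adjusted p = 3.09e-14), and rose with SGN-2FF (0.46 ± 0.06, adjusted p = 4.28e-06). With Fucotrim I its value was 0.34 ± 0.11 (adjusted p = 0.0203, from 1.03e-05 to 0.089 under the alternatives) and with Fucotrim II 0.25 ± 0.09 (adjusted p = 0.0372, from 0.000981 to 0.24). AKR1C1, at only 3.68 to 4.2 CPM with DMSO, reached 8.76 to 9.14 CPM with P-SiaFNEtoc (1.21 ± 0.13, adjusted p = 4.17e-08) and 5.62 to 7.42 CPM with SGN-2FF (0.72 ± 0.15, adjusted p = 0.000932). Its value was 0.43 ± 0.16 with Fucotrim II (adjusted p = 0.0448, from 0.0256 to 0.176 under the alternatives) and 0.22 ± 0.17 with Fucotrim I (adjusted p = 0.323). These genes share sequence, with 13.6% of the windows of AKR1C1 and 20.1% of those of AKR1C2 found in another gene, so how reads were split between them is uncertain.

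UGDH, which makes UDP-glucuronic acid, fell with the 3 fucosylation inhibitors and rose with P-SiaFNEtoc. It was at 390 to 411 CPM with DMSO, 285 to 313 CPM with Fucotrim I (-0.44 ± 0.05, edgeR adjusted p = 6.24e-07), 279 and 281 CPM with Fucotrim II (-0.52 ± 0.06, adjusted p = 0.000118) and 333 to 362 CPM with SGN-2FF (-0.22 ± 0.04, adjusted p = 0.000184). With P-SiaFNEtoc it was at 430 to 453 CPM (0.15 ± 0.04, adjusted p = 0.00964), and that call was lost under some alternatives, with adjusted p-values between 0.00236 and 0.0856. An antisense gene covers 12.7% of the exon bases of UGDH. PTGR1, which reduces reactive alkenals, lay near the threshold of the test with all 4 inhibitors. Its log2 fold change was -0.18 ± 0.06 with Fucotrim I (adjusted p = 0.0231, from 0.00264 to 0.133 under the alternatives), -0.18 ± 0.07 with Fucotrim II (adjusted p = 0.0608, from 0.0184 to 0.211), -0.18 ± 0.05 with SGN-2FF (adjusted p = 0.0196, from 0.00791 to 0.113) and -0.16 ± 0.05 with P-SiaFNEtoc (adjusted p = 0.0324, from 0.0193 to 0.155).

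In the iron and heme group all 7 genes were tested. With SGN-2FF 2 rose and 5 fell (11.5% and 9.08% of all genes did), with Fucotrim I 2 rose and 3 fell (21.6% and 22.1%), with Fucotrim II 2 rose and 1 fell (25.6% and 25.7%), and with P-SiaFNEtoc 1 rose and 1 fell (9.02% and 7.33%). FTL, the ferritin light chain, was at 430 to 443 CPM with DMSO and at 298 to 327 CPM with SGN-2FF (-0.47 ± 0.04, edgeR adjusted p = 3.23e-10). It fell with Fucotrim I (-0.29 ± 0.06, adjusted p = 0.000976) but was at 444 and 586 CPM with Fucotrim II, above DMSO and not called (0.23 ± 0.10, adjusted p = 0.0763). That value rests on single libraries, since it was 0.42 and called without Fucotrim II replicate 1 (adjusted p = 2.43e-07) and 0.01 without replicate 2 (adjusted p = 0.863). It was also called with all 14 libraries in 1 fit (adjusted p = 0.0362) and with the replicate block by library name (adjusted p = 0.0341). With P-SiaFNEtoc the log2 fold change of FTL was -0.11 ± 0.04 (adjusted p = 0.035), and the adjusted p-values under the alternatives ran from 0.0173 to 0.443. FECH fell with Fucotrim I (-0.37 ± 0.05, adjusted p = 1.13e-05), Fucotrim II (-0.43 ± 0.06, adjusted p = 0.000339) and SGN-2FF (-0.31 ± 0.04, adjusted p = 2.18e-06), whereas its value with P-SiaFNEtoc was -0.02 ± 0.04 (adjusted p = 0.752).

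The remaining groups were small. In the thioredoxin group of 4 genes, 2 fell with Fucotrim I (22.1% of all genes did), 1 fell with Fucotrim II (25.7%), and 1 rose and 2 fell with SGN-2FF (11.5% and 9.08%). With P-SiaFNEtoc all 4 were not called, with a median log2 fold change of 0.03. In the NADPH group of 5 genes, 1 rose and 1 fell with Fucotrim I (21.6% and 22.1% of all genes), 1 fell with Fucotrim II (25.7%), 2 rose and 1 fell with SGN-2FF (11.5% and 9.08%), and 2 rose with P-SiaFNEtoc (9.02%). A last group of 3 genes had 3 falls for Fucotrim I (22.1% of all genes), 2 for Fucotrim II (25.7%) and 2 for SGN-2FF (9.08%). PIR, a nuclear protein that binds iron, fell with Fucotrim II from 10.5 to 11 CPM to 6.92 and 7.18 CPM (-0.62 ± 0.11, edgeR adjusted p = 0.00161). With Fucotrim I PIR was at -0.34 ± 0.11 (adjusted p = 0.0144, from 0.00591 to 0.0648 under the alternatives), and it was not called with SGN-2FF (-0.20 ± 0.10, adjusted p = 0.173) or P-SiaFNEtoc (0.07 ± 0.09, adjusted p = 0.688). TRIM16, a ubiquitin ligase, fell with SGN-2FF from 24.6 to 28.1 CPM to 16 to 17.3 CPM (-0.64 ± 0.08, adjusted p = 7.76e-07). Its values were -0.25 ± 0.09 with Fucotrim I (adjusted p = 0.0226, from 0.00359 to 0.123 under the alternatives), -0.22 ± 0.10 with Fucotrim II (adjusted p = 0.0961, from 0.0098 to 0.439) and -0.02 ± 0.07 with P-SiaFNEtoc (adjusted p = 0.914). A readthrough gene shares 23.5% of the exon bases of TRIM16.

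The regulators of NRF2 were all tested, and of the 10 genes 1 rose and 4 fell with Fucotrim I (21.6% and 22.1% of all genes did), 2 rose and 2 fell with Fucotrim II (25.6% and 25.7%), 3 fell with SGN-2FF (9.08%), and 2 rose and 1 fell with P-SiaFNEtoc (9.02% and 7.33%). NFE2L2, the gene of NRF2, was at 52 to 54.5 CPM with DMSO, 44.4 to 45.4 CPM with Fucotrim I and 38.5 and 39.7 CPM with Fucotrim II. It fell with Fucotrim I (-0.24 ± 0.06, edgeR adjusted p = 0.00373) and Fucotrim II (-0.44 ± 0.07, adjusted p = 0.000765). With SGN-2FF it was at 49.6 to 51.1 CPM, and its log2 fold change of -0.06 ± 0.05 was not called (adjusted p = 0.452). With P-SiaFNEtoc it was at 45.4 to 48.2 CPM (-0.16 ± 0.05, adjusted p = 0.0381), and the adjusted p-values under the alternatives ran from 0.0311 to 0.13. These are values of the mRNA, and NRF2 is controlled largely through the stability of its protein, which was not measured here. Other genes share 13.6% of the exon bases of NFE2L2 on the same strand and 24.8% on the opposite strand.

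**Figure D4:**
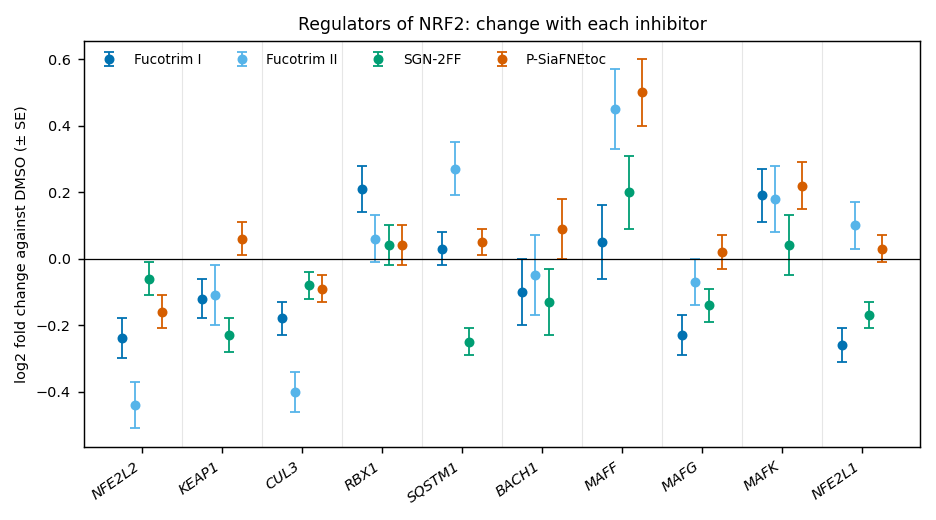
Log2 fold change against DMSO (vertical axis, ± SE) of 10 regulators of NRF2 (horizontal axis) with the 4 inhibitors. NFE2L2 and CUL3 are lowest with Fucotrim II (-0.44 and -0.40), and KEAP1 and SQSTM1 are lowest with SGN-2FF (-0.23 and -0.25).

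KEAP1, the adaptor that binds NRF2, was at 110 to 121 CPM with DMSO and fell with SGN-2FF to 89.2 to 102 CPM (-0.23 ± 0.05, edgeR adjusted p = 0.00212). Its values were -0.12 ± 0.06 with Fucotrim I (adjusted p = 0.124), -0.11 ± 0.09 with Fucotrim II (adjusted p = 0.329) and 0.06 ± 0.05 with P-SiaFNEtoc (adjusted p = 0.432). Under the alternatives the adjusted p-values ran from 0.00776 to 0.369 with Fucotrim I and from 0.00312 to 0.79 with Fucotrim II. CUL3, the scaffold of the ligase, fell with Fucotrim II from 133 to 140 CPM to 101 and 106 CPM (-0.40 ± 0.06, adjusted p = 0.000751) and with Fucotrim I (-0.18 ± 0.05, adjusted p = 0.0104). The second of these calls was lost without DMSO replicate 1 or Fucotrim I replicate 3 (adjusted p = 0.0633 and 0.0523), and the lowest adjusted p under the alternatives was 0.000272. RBX1, the RING subunit, rose with Fucotrim I (0.21 ± 0.07, adjusted p = 0.0217), with adjusted p-values from 0.00215 to 0.124 under the alternatives.

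SQSTM1, which encodes the autophagy receptor p62 that sequesters KEAP1, was at 200 to 219 CPM with DMSO. It fell with SGN-2FF to 169 to 182 CPM (-0.25 ± 0.04, edgeR adjusted p = 0.000106) and rose with Fucotrim II to 238 and 275 CPM (0.27 ± 0.08, adjusted p = 0.0142). The rise had adjusted p-values from 1.22e-05 to 0.0903 under the alternatives. NFE2L1, a relative of NRF2 that drives proteasome genes, fell with Fucotrim I (-0.26 ± 0.05, adjusted p = 0.000433) and SGN-2FF (-0.17 ± 0.04, adjusted p = 0.00396). NFE2L1 was not called with Fucotrim II (0.10 ± 0.07, adjusted p = 0.231) or P-SiaFNEtoc (0.03 ± 0.04, adjusted p = 0.702). BACH1 was not called with any inhibitor, with log2 fold changes of -0.10 ± 0.10, -0.05 ± 0.12, -0.13 ± 0.10 and 0.09 ± 0.09 in the order Fucotrim I, Fucotrim II, SGN-2FF and P-SiaFNEtoc (the smallest adjusted p, with SGN-2FF, was 0.354).

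Of the small MAF proteins that pair with NRF2, MAFF was at 9.17 to 10.3 CPM with DMSO and rose with P-SiaFNEtoc to 13.1 to 15 CPM (0.50 ± 0.10, edgeR adjusted p = 0.000453). MAFF also rose with Fucotrim II (0.45 ± 0.12, adjusted p = 0.0118), with adjusted p-values from 0.000708 to 0.0717 under the alternatives. MAFG fell with Fucotrim I (-0.23 ± 0.06, adjusted p = 0.00244) and was at -0.14 ± 0.05 with SGN-2FF (adjusted p = 0.0501, from 0.0299 to 0.173 under the alternatives). MAFK rose with P-SiaFNEtoc (0.22 ± 0.07, adjusted p = 0.0494), with adjusted p-values from 0.000809 to 0.251 under the alternatives. For these and the other genes of the pathway, whether the change with one inhibitor differs from that with another was not tested.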

How the data were processed

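RNA from CWR22RV1 cells was sequenced by the authors as TruSeq stranded mRNA libraries with single reads, trimmed with Cutadapt, mapped to hg38 with HISAT2 and counted with featureCounts in Galaxy. The deposited counts are whole reads per gene without normalization, in a table for each inhibitor that repeats the 3 DMSO libraries. The strand setting, annotation release and handling of multiply mapped reads are not given in the sources used here. The methods state 3 biological repeats, whereas the series holds 2 libraries of Fucotrim II, and both were used here.

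Each inhibitor was fitted with DMSO alone by edgeR 4.0.16 (robust quasi-likelihood test, filterByExpr with a minimum count of 10 and total of 15, TMM scaling) in R 4.3.3, with Benjamini-Hochberg adjustment over all genes tested and a threshold of 0.05. All 9 target genes passed the filter in each fit. The script was tested on simulated counts with 200 changed genes. Levels are CPM under 1 TMM scaling of all 14 libraries. Exons, positions and shared windows come from the GENCODE annotation (release 44) of hg38. The target genes, the other lists, the tests and the naming rule were chosen with earlier results of these data known. The rule named all 9 targets, all regulators and, per inhibitor, those 2 other pathway genes that rose most and 2 that fell most, among called genes with at least 50 mean counts and no overlap with DMSO. A gene named with 1 inhibitor was also described with the others, except that several values of regulators that were not called are left out. Similar genes were taken by highest r. Alternatives were leaving out each library, the replicate number as a block, DESeq2 1.42.0 (its size factors and its test), limma-voom (limma 3.58.1), no filter or at least 10 counts in every library, 1 fit of all 14 libraries, mitochondrially encoded genes left out, and a threshold of 0.01.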

Additional observations from a re-analysis of the deposited data

How the results depend on the processing

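With the 3 fucosylation inhibitors, all 378 log2 fold changes of the 9 targets under the alternatives were below 0. The alternatives could hardly turn these signs, since every treated library lay below every DMSO library for each target. The targets were also chosen with these contrasts known. Of the 9, 8 or 9 were called with Fucotrim I and SGN-2FF, and 9 with Fucotrim II where both of its libraries were kept. With P-SiaFNEtoc the count of 2 called targets became 1 to 2 when a library was left out, 1 by DESeq2, 0 in 1 fit of all 14 libraries (HMOX1 and GCLM lost) and 1 at an adjusted p under 0.01, and 4 of the 9 had an unadjusted p under 0.05 in edgeR, as did 4297 of 14259 tested genes. The 27 other pathway genes called with Fucotrim II became 15 to 32 when a library was left out and 14 at an adjusted p under 0.01. Over all genes, calls with SGN-2FF (2946) were 1642 to 3109 when a library was left out (1642 without SGN-2FF replicate 2), 1942 by DESeq2, 1695 in 1 fit and 1609 at 0.01. Calls with P-SiaFNEtoc (2331) were 1516 to 2115 (1516 without its replicate 2), 1482 by DESeq2, 998 in 1 fit and 1171 at 0.01. The cause of these shifts was not tested, beyond the stricter threshold and fewer samples themselves. Leaving out a library turned the sign of values that were not called: SQSTM1 (-0.01 to 0.07) and MAFF (-0.03 to 0.12) with Fucotrim I, KEAP1 (-0.26 to 0.02), BACH1 (-0.19 to 0.08) and SESN2 (-0.02 to 0.07) with Fucotrim II, RBX1 (-0.01 to 0.07) and MAFK (-0.07 to 0.11) with SGN-2FF, and RBX1 (-0.02 to 0.07), NFE2L1 (0.00 to 0.05) and TRIM16 (-0.07 to 0.04) with P-SiaFNEtoc. Leaving out a Fucotrim II library left 1, which was assumed to vary like DMSO. Whether the replicates are separate cultures rests on the study's methods.

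No inhibitor had every same-numbered pair correlated above 0.1 in its deviations from the group means (correlations 0.151, 0.135 and 0.021 with Fucotrim I, 0.066, -0.026 and -0.068 with SGN-2FF, -0.044, 0.024 and -0.02 with P-SiaFNEtoc, -0.167 and -0.23 with Fucotrim II by title, 0.23 and 0.065 by library name), so the libraries were taken to share only a number. With Fucotrim I, replicates 1 and 2 correlated best with the DMSO library of their own number and replicate 3 did not. The limit of 0.1 cannot exclude a pairing. The deviations of the 2 Fucotrim II libraries mirror each other, so their correlations are not separate values. With the replicate block, 9, 9, 9 and 2 targets were called with Fucotrim I, Fucotrim II, SGN-2FF and P-SiaFNEtoc. Other pathway genes called with Fucotrim II were 14 with the replicate block by title. The titles and the library names number the Fucotrim II libraries differently, and over all genes 5300 calls by title and 7779 by library name were made with the replicate block, against 7511 without it. With Fucotrim I the replicate block gave 7288 calls against 6209, with SGN-2FF 2868 against 2946 and with P-SiaFNEtoc 2674 against 2331.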

Other observations

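The pathway genes given here stand outside the naming rule and were chosen after their values were seen. GSTM3, a glutathione transferase, was at 18.1 to 20 CPM with DMSO and 29.2 to 32.3 CPM with Fucotrim I, and rose by edgeR's test with all 4 inhibitors. Its log2 fold changes were 0.71 ± 0.08 (adjusted p = 6.42e-07) with Fucotrim I, 0.54 ± 0.10 (adjusted p = 0.00166) with Fucotrim II, 0.41 ± 0.08 (adjusted p = 0.000389) with SGN-2FF and 0.65 ± 0.07 (adjusted p = 1.78e-07) with P-SiaFNEtoc. GSTM4, another member of that family, rose with Fucotrim I (0.36 ± 0.08, adjusted p = 0.000835), SGN-2FF (0.26 ± 0.07, adjusted p = 0.00963) and P-SiaFNEtoc (0.33 ± 0.07, adjusted p = 0.00124). With SGN-2FF the highest adjusted p of GSTM4 under the alternatives was 0.0502, by DESeq2, and the lowest 0.0093. With Fucotrim II it was at 0.27 ± 0.10 (adjusted p = 0.0444), with adjusted p-values from 0.00151 to 0.335 under the alternatives. The 4 comparisons share their DMSO libraries.

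PRDX1, a peroxiredoxin that SRXN1 repairs, was at 562 to 582 CPM with DMSO. It fell with Fucotrim II to 419 and 453 CPM (-0.39 ± 0.06, edgeR adjusted p = 0.000751) and with SGN-2FF to 485 to 505 CPM (-0.19 ± 0.03, adjusted p = 0.000163). With Fucotrim I it was at 511 to 531 CPM (-0.13 ± 0.04, adjusted p = 0.0213, from 0.00332 to 0.0959 under the alternatives), and with P-SiaFNEtoc at 580 to 606 CPM (0.06 ± 0.04, adjusted p = 0.323). A gene on the opposite strand covers 29.8% of its exon bases. SESN2, a stress-induced sestrin, fell with Fucotrim I (-0.36 ± 0.07, adjusted p = 0.000382) and SGN-2FF (-0.29 ± 0.07, adjusted p = 0.00225), and was at 0.04 ± 0.08 with Fucotrim II (adjusted p = 0.727) and -0.05 ± 0.06 with P-SiaFNEtoc (adjusted p = 0.638).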
